A study of Saccharomyces cerevisiae with 25 samples.

Results

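The pentose phosphate pathway genes described here are 10 named members, matched by gene name among the 6650 named genes of the deposited table: ZWF1, SOL3, SOL4, GND1 and GND2 of the oxidative branch, and TKL1, TKL2, TAL1, NQM1 and RKI1 of the non-oxidative branch. All 10 were found, and 8 of them form 4 pairs of a minor and a major isozyme gene. RNA of budding yeast was sequenced during phosphate withdrawal. Every library, that at 0 min included, came from BY4741, a standard laboratory strain, with a reporter in which the PHO84 promoter drives YFP (pho84pr-YFP) and with overexpression of PHO90, a phosphate transporter gene (pho90_OX). Neither the promoter behind the overexpression nor the number of clones is stated in the labels, and no library without the overexpression was analysed here. Cells grown in high phosphate medium gave 1 library at 0 min. After a wash and a move to medium without phosphate, 24 libraries were taken at intervals of 15 min, here divided into an early window (15 to 120 min), a middle window (135 to 240 min) and a late window (255 to 360 min) of 8 libraries each.

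The pathway branches off glycolysis at glucose 6-phosphate. Its oxidative branch makes NADPH, the reductant of biosynthesis and of thioredoxin and glutathione systems, and yields ribulose 5-phosphate. Its non-oxidative branch converts pentose phosphates reversibly into the sugars of glycolysis and supplies ribose 5-phosphate for nucleotides. In yeast several steps have a major isozyme gene that is expressed in growing cells and a minor one that is associated with stress and entry into stationary phase.

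Levels are RPM, reads per 1000000 reads in listed genes, or their log2. A gene under 15 reads in a library has no value there. Reads in listed genes ranged from 450744 to 2271193 per library, with a median of 1382080 for early, 1010602 for middle and 612972 for late libraries, which put the floor at a higher RPM late. PHO84, the high-affinity phosphate transporter gene induced when phosphate is scarce, was at 1654 RPM at 360 min, against 111 RPM at 0 min. PHO90 had 1636 RPM at 0 min, 2153 to 2689 RPM early, 2775 to 4197 RPM in the middle window and 3832 to 5413 RPM late. The share of reads of the overexpressed gene thus rose over the windows compared here. Each value is a share of a library, so a change in 1 transcript and an opposite change in the rest of the RNA cannot be told apart, nor can fewer cells that express a gene and less of its RNA per cell. Ribosomal protein genes took 11.1% of reads at 360 min and 40.1% at 0 min, and the median tested gene was 0.45 (log2) higher late than early.

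Late without phosphate, minor isozyme genes stood far above their early levels and the major ones did not. GND2, SOL4 and NQM1 rose and GND1 fell, while TKL2 appeared from below the floor. Of the 10 members, 9 had a value in at least 20 of the 24 libraries without phosphate and were tested. A gene was called in limma at an adjusted p under 0.05 over all 4343 genes tested and a log2 difference of at least 1. Late minus early, 3 of the 9 members were higher and 1 lower, against backgrounds of 13.8% and 3.41% of all genes tested. The median difference of the 9 was -0.05, against 0.45 over all genes. All libraries belong to 1 course and the labels name no separate cultures, so each p-value refers to the spread among these libraries alone.

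GND1 and GND2 encode the major and minor forms of 6-phosphogluconate dehydrogenase, the second NADPH-producing step. GND1 (YHR183W) lies on the plus strand of chromosome VIII (470960 to 472429, R64) and GND2 (YGR256W) on the plus strand of chromosome VII (1004624 to 1006102). Each has a single coding exon. Their coding sequences were 78.6% identical, with the longest identical run of 20 bases, at chrVII:1004669-1004688 (plus strand) in GND2 and at chrVIII:470996-471015 (plus strand) in GND1. It is shown, in capitals throughout, as the longest stretch over which a read could fit both genes without a mismatch.
GND2 and GND1: ATGGGTCAAAATTTGATCTT
No stretch of 25 bases was common to both. At 45 min the pair had 33.0 and 679 reads with a fractional part and a sum of 712, and no other library had such a value. All other values of the 10 members were whole reads within 0.02. Whether reads, with mismatches allowed, were divided between GND1 and GND2 was not tested.

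GND2 had 225, 438 and 571 RPM (lowest, median and highest) in the late window, against 19.8, 29.7 and 44.4 RPM in the early window. The windows did not overlap, and from 135 min on every library lay above all early ones. Its level was 8.65 ± 0.48 late and 4.86 ± 0.37 early (log2 RPM, SD, n = 8 each), a difference of 3.79 (SE 0.35, limma adjusted p = 2.54e-09). GND2 was already called by the middle window, at 7.48 ± 1.14 against 4.86 ± 0.37 early (difference 2.62, limma adjusted p = 4.05e-06), where 4.51% of all genes were called higher. It rose again late minus middle, by 1.17 (limma adjusted p = 0.0179), when only 0.714% of genes were called higher. That last step lost its call with each library centred on its median (0.98), and without the 135 min (0.90) or 150 min (0.97) library.

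GND1 had 168, 181 and 237 RPM (lowest, median and highest) late, against 334, 355 and 573 RPM early. The highest late library lay below the lowest early one. Its level was 7.57 ± 0.18 late and 8.67 ± 0.32 early (SD, n = 8), a difference of -1.09 (SE 0.12, limma adjusted p = 9.18e-09), or 2.14-fold lower. The steps from early to middle (-0.45, limma adjusted p = 0.00255) and from middle to late (-0.64, limma adjusted p = 0.000801) stayed under the size limit.

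The ratio of a minor to its major gene in the same library does not depend on how the library was scaled. GND2 made up 67.5% ± 7.7 of the reads of the pair in the late window and 6.84% ± 1.69 in the early one (SD, n = 8). The share was 4.14% at 0 min (17 of 411 reads, exact 95% interval 2.43% to 6.54%, counting error only). At 165 min it stood at 23.1% (19.5% to 27.0%), at 180 min at 49.1% (44.6% to 53.6%) and at 330 min at 77.2% (72.7% to 81.3%). GND2 outnumbered GND1 from 195 min on, in 4 of 8 middle and 8 of 8 late libraries. The log2 ratio of GND2 to GND1 was 1.08 ± 0.51 late and -3.81 ± 0.39 early, a difference of 4.89 (exact permutation test over libraries, two-sided, p = 0.000155, the smallest it can give; adjusted p = 0.000311 over the 10 pair and window comparisons that could be made). Reads of the pair together came to 613 ± 129 RPM late and 445 ± 100 RPM early (SD, n = 8), with overlapping ranges of 406 to 740 and 361 to 607 RPM.

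**Figure D1:**
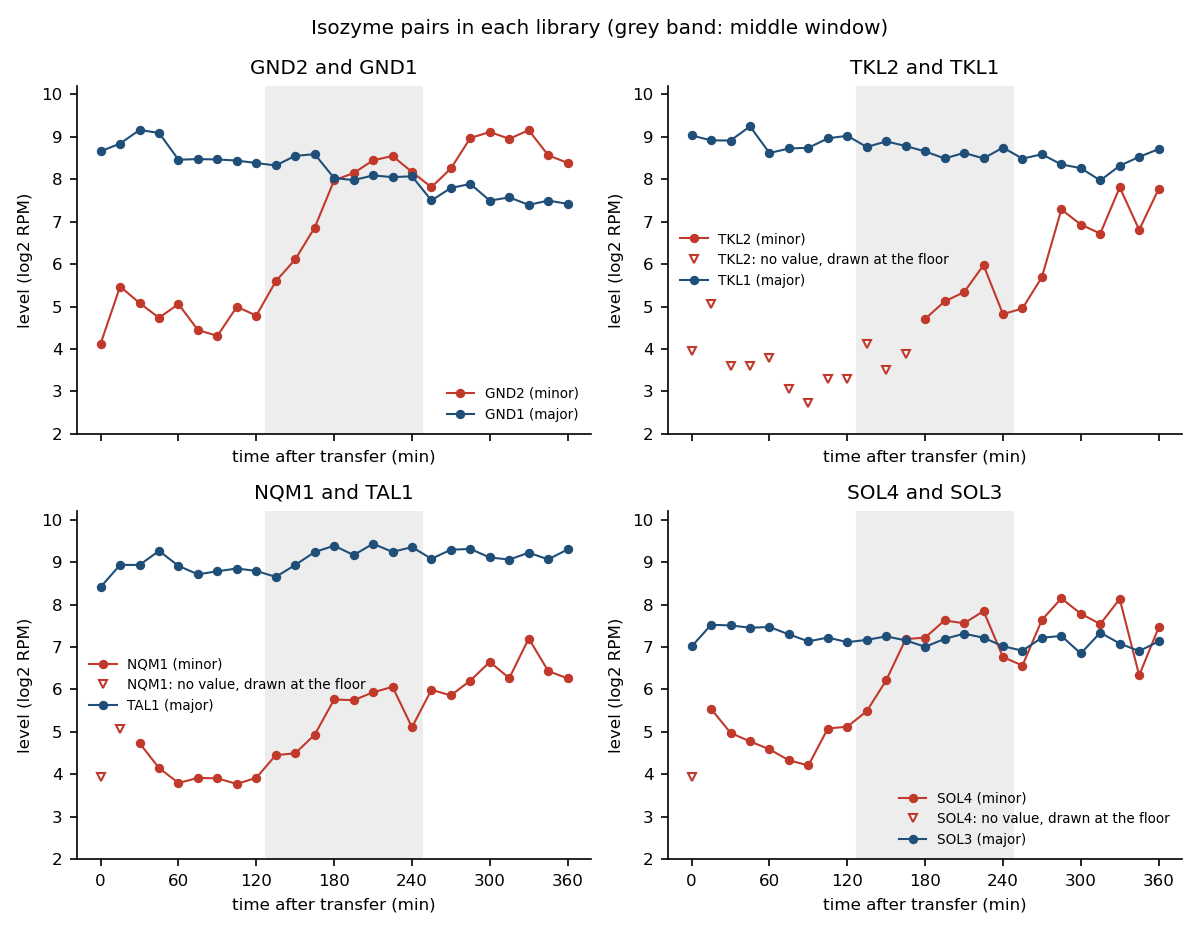
Level (log2 RPM) of the minor (red) and major (blue) gene of each isozyme pair in all 25 libraries against time after transfer (min); open triangles mark libraries without a value, drawn at the floor of 15 reads. GND2 crosses above GND1 at 195 min and SOL4 above SOL3 at 165 min, while TKL2 and NQM1 stay below TKL1 and TAL1 in every library.

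SOL3 (YHR163W, plus strand of chromosome VIII, 423724 to 424473) and SOL4 (YGR248W, plus strand of chromosome VII, 985972 to 986739) encode 6-phosphogluconolactonases, which act between ZWF1 and the GND enzymes. SOL4 had 80.6, 193 and 284 RPM (lowest, median and highest) late, against 18.5, 29.4 and 46.6 RPM early. The windows did not overlap, although the 345 min library, at 80.6 RPM (95% interval 57.8 to 109), lay far below its neighbour at 330 min, at 281 RPM (237 to 330). SOL4 rose by 2.62 (log2; 7.45 ± 0.67 late, 4.83 ± 0.44 early, SD, n = 8; SE 0.30, limma adjusted p = 5.06e-08), or 6.16-fold. Most of this was in place by the middle window (6.99 ± 0.80, 2.16 above early, limma adjusted p = 6.18e-06), and late minus middle it differed by 0.46 (limma adjusted p = 0.257).

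SOL3 had 115, 138 and 162 RPM late (lowest, median and highest), against 139, 166 and 184 RPM early. These ranges overlapped, and the difference of -0.25 (SE 0.09, limma adjusted p = 0.0127) was under the size limit. SOL4 made up 56.1% ± 10.1 of the reads of the pair late and 15.2% ± 3.8 early (SD, n = 8). It passed SOL3 at 165 min, with 148 against 145 reads, and was again the lower of the pair at 240, 255 and 345 min. The log2 ratio of SOL4 to SOL3 was 2.88 higher late than early (0.36 ± 0.60 and -2.51 ± 0.42, SD, n = 8 each; exact permutation p = 0.000155, adjusted p = 0.000311). Late minus middle the ratio differed by 0.54 (0.36 ± 0.60 late and -0.18 ± 0.79 in the middle window, exact permutation p = 0.149). Coding sequences of SOL4 and SOL3 were 56.4% identical, with no common run over 8 bases.

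Transketolase, which moves a unit of carbon atoms between sugar phosphates, has the major gene TKL1 (YPR074C, minus strand of chromosome XVI, 692796 to 694838) and the minor gene TKL2 (YBR117C, minus strand of chromosome II, 474392 to 476437), 69.1% identical in coding sequence. TKL2 had no value at 0 min, in any early library or at 135, 150 and 165 min. From 180 to 240 min it had 25, 35, 51, 65 and 27 reads. In the late window it had 31.0, 117 and 225 RPM (lowest, median and highest), and 7 of the 8 late values lay above the highest early floor of 33.3 RPM. With too few values TKL2 was not among the genes tested. Set against the floor of each early library, its late mean was at least 9.16-fold higher. With every missing value of every gene set to the floor, limma called TKL2 higher late minus early (3.20, limma adjusted p = 5.39e-07), middle minus early (1.13, limma adjusted p = 0.0292) and late minus middle (2.07, limma adjusted p = 0.00219), and for the time trend. Under that setting 13.1%, 3.62% and 0.836% of 5383 genes were called higher and 36.3% for the trend. Its middle window then held 3 floor values among 8, and its early window floor values only. The floors follow the depth of each library, so these calls do not rest on a measured spread of TKL2. No conclusion is drawn from them, and 1.13 is not a lower bound because floors enter both windows.

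TKL1 had 251, 343 and 419 RPM late (lowest, median and highest) against 393, 483 and 608 RPM early. Only the 360 min library reached into the early range. Its difference of -0.49 (SE 0.10, limma adjusted p = 0.000103) was not called, and with libraries centred on their median it was -0.95, still under the size limit. TKL2 took 41.3% of the reads of the pair at 330 min (exact 95% interval 35.5% to 47.3%), its highest share, and 26.1% ± 11.3 over the late window (SD, n = 8). In no early library could it have exceeded 6.03%, the share of 14 reads at 15 min. The log2 ratio of TKL2 to TKL1 was 1.75 higher late than middle (-1.66 ± 1.04, n = 8, and -3.41 ± 0.59, n = 5; exact permutation p = 0.00932, adjusted p = 0.0104), where the 3 middle libraries without a value were left out.

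Transaldolase is encoded by TAL1 (YLR354C, minus strand of chromosome XII, 836350 to 837357), and NQM1 (YGR043C, minus strand of chromosome VII, 580435 to 581436) encodes a transaldolase of unknown function. Their coding sequences were 67.8% identical. NQM1 had 58.1, 76.8 and 147 RPM late (lowest, median and highest), against 13.7, 15.1 and 26.6 RPM in the 7 early libraries with a value. The windows did not overlap, and early values rested on 15 to 34 reads. NQM1 rose by 2.33 (6.36 ± 0.42 late, n = 8, and 4.03 ± 0.34 early, n = 7; SE 0.23, limma adjusted p = 4.40e-09), or 5.04-fold. It was higher by the middle window (difference 1.29, limma adjusted p = 7.25e-05) and again late minus middle (1.05, limma adjusted p = 0.00274). Scaled to reads outside ribosomal protein genes both steps lost their call (0.95 and 0.92), as did the last one with libraries centred (0.86) or without the 135, 150, 165 or 330 min library (0.92, 0.93, 0.99 and 0.93).

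TAL1 was the most abundant member per length in both windows. It had 535, 576 and 636 RPM late (lowest, median and highest) against 420, 472 and 617 RPM early. The difference of 0.28 (SE 0.10, limma adjusted p = 0.0172) was not called, and it turned to -0.18 with libraries centred on their median or scaled to reads outside ribosomal protein genes. NQM1 held 12.7% ± 3.6 of the reads of the pair late (SD, n = 8) and 3.38% ± 0.83 early (n = 7), and never more than 19.7%. The log2 ratio of NQM1 to TAL1 differed by 2.05 late minus early (-2.82 ± 0.44, n = 8, and -4.87 ± 0.32, n = 7; exact permutation p = 0.000155, adjusted p = 0.000311).

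**Figure D2:**
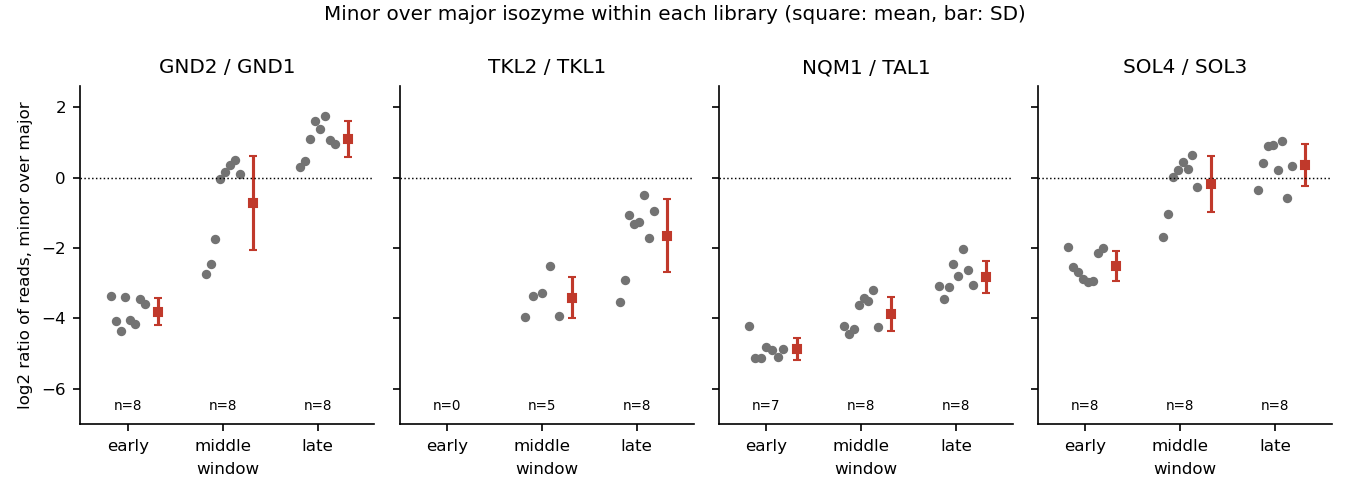
Log2 ratio of minor over major isozyme reads within each library, by window, with the mean and SD as a square and bar; n is the number of libraries with both values. All late ratios lie above all early ones for GND2 over GND1, NQM1 over TAL1 and SOL4 over SOL3, and GND2 over GND1 is above 0 in 8 of 8 late libraries.

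Set side by side, late minus early, the log2 ratio differed by 4.89 for GND, 2.88 for SOL and 2.05 for the transaldolase pair. With missing TKL2 values set to the floor, the transketolase ratio was higher by at least 3.69 (-1.66 ± 1.04 late and a floor of -5.34 ± 0.69 early, SD, n = 8 each). Whether these sizes differ from each other was not tested. Counting libraries, 3 of the 9 tested members had all late values above all early ones (GND2, SOL4 and NQM1; background 28.2%), and GND1 had all of them below (background 4.03%). Middle against early, GND2 alone lay above without overlap (background 7.55%) and 0 members lay below (1.52%). Late against middle, GND1 alone lay below (background 0.299%) and 0 lay above (1.08%). In limma, middle minus early, 3 members were higher (background 4.51%) and 0 lower (background 2.81%), and late minus middle 2 were higher (background 0.714%) and 0 lower (background 0.0921%). Without regard to size, at an unadjusted p under 0.05, limma put 4 of the 9 members higher middle minus early, against 52.8% of all genes, and 3 lower (GND1, TKL1 and RKI1), against 9.21%. Late minus middle these counts were 2 higher, against 32.9%, and 2 lower (GND1 and TKL1), against 6.33%.

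Since the median of all genes itself shifted, the members were also set against it. Relative to that median, GND2, SOL4 and NQM1 were 3.34, 2.17 and 1.88 higher late minus early, and GND1, RKI1 and TKL1 were at -1.55, -1.32 and -0.95. With each library centred on its median, limma called 3 members higher and 2 lower late minus early, RKI1 being added to GND1, against 4.61% and 4.37% of all genes. Scaling to reads outside ribosomal protein genes called the same 5 members, against 4.63% and 4.4%. Middle minus early, centring called 3 higher and 1 lower (2.39% and 3.64% of genes) and that scaling 2 higher and 1 lower (2.03% and 3.96%). Late minus middle, centring called 0 members and that scaling 1, with 0.391% and 0.461% of genes higher and 0.99% and 0.484% lower. The time trend called 5 members with centring (19.2% of genes) and 6 with that scaling (20.6%), TKL1 being the addition.

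ZWF1, RKI1 and, outside the 10 members, RPE1 have no isozyme pair. ZWF1 (YNL241C, minus strand of chromosome XIV, 196426 to 197943) encodes glucose-6-phosphate dehydrogenase, the entry step and a source of NADPH. It had 111, 162 and 215 RPM late (lowest, median and highest), against 129, 171 and 204 RPM early. The ranges overlapped throughout, with a difference of -0.05 (SE 0.13, limma adjusted p = 0.759). RPE1, ribulose-phosphate 3-epimerase, differed by -0.14 (7.14 ± 0.19 late and 7.28 ± 0.10 early, SD, n = 8; limma adjusted p = 0.125).

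RKI1 (YOR095C, minus strand of chromosome XV, 503552 to 504328) encodes ribose-5-phosphate ketol-isomerase, which makes ribose 5-phosphate. It had 30.2, 85.1 and 169 RPM late (lowest, median and highest), against 120, 149 and 178 RPM early. The windows overlapped, because RKI1 did not decline steadily. It stood at 150 RPM at 135 min, at 30.1 RPM (95% interval 21.3 to 41.3) at 210 min, at 119 RPM (93.3 to 150) at 255 min, at 30.2 RPM (18.9 to 45.7) at 285 min and at 169 RPM (135 to 209) at 345 min. The low values at 210 and 285 min rested on 38 and 22 reads. The difference late minus early was -0.86 (6.34 ± 0.77 late and 7.21 ± 0.21 early, SD, n = 8; SE 0.29, limma adjusted p = 0.0112) and was not called. It passed the size limit without the 345 min library (-1.01), without the 15, 345 and 360 min libraries (-1.18) and with libraries centred (-1.32). Middle minus early, RKI1 differed by -0.98 (limma adjusted p = 0.00731), and late minus middle by 0.11 (limma adjusted p = 0.803). The middle minus early difference lay just inside the size limit and was called lower without the 15, 45, 135, 150, 165 or 240 min library (-1.01 to -1.12), with windows of 6 libraries (-1.18), with libraries centred (-1.24) and scaled to reads outside ribosomal protein genes (-1.31).

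**Figure D3:**
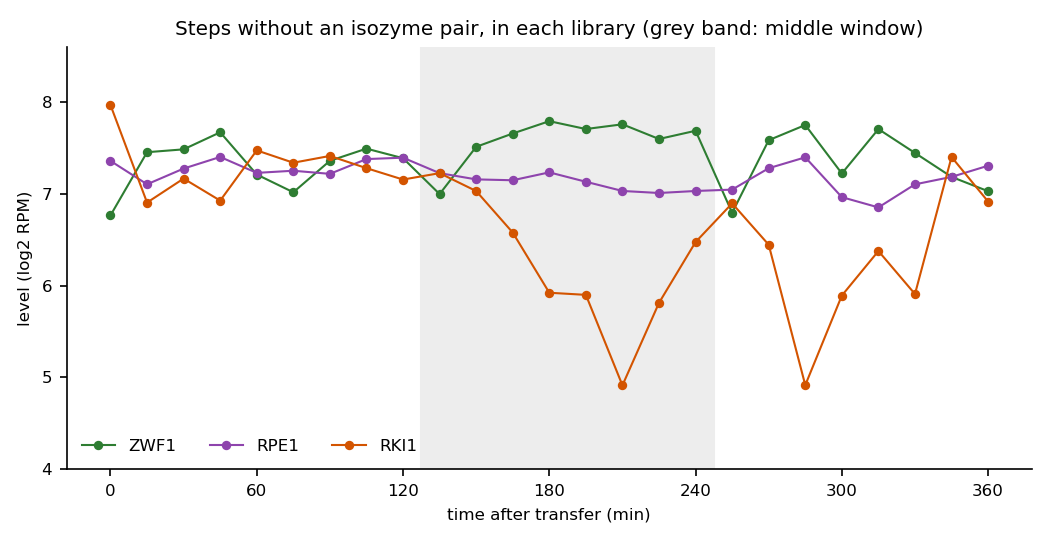
Level (log2 RPM) of ZWF1, RPE1 and RKI1 in all 25 libraries against time after transfer (min). RKI1 dips to 30.1 RPM at 210 min and 30.2 RPM at 285 min and returns to 169 RPM at 345 min, while RPE1 and ZWF1 stay within 111 to 222 RPM after transfer.

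A spline of time over the 24 libraries, which uses no windows, called 5 of the 9 tested members, against 32.2% of all genes: GND2 (fitted range 4.13, limma adjusted p = 3.13e-11), SOL4 (3.07), NQM1 (2.39), GND1 (1.61) and RKI1 (1.5, limma adjusted p = 0.00102). TKL1, SOL3, ZWF1 and TAL1 had fitted ranges of 0.50, 0.51, 0.48 and 0.44 and were not called.

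Within the course, the minor genes stood lower and RKI1 higher at 240 min than at 225 min. SOL4 had 109 RPM (95% interval 88.9 to 132) at 240 min and 230 RPM (202 to 262) at 225 min. TKL2 had 28.2 and 62.9 RPM, NQM1 34.5 and 66.8 RPM and GND2 289 and 375 RPM, at 240 min and then at 225 min. RKI1 stood at 88.9 RPM (71.0 to 110) at 240 min and 56.2 RPM (42.7 to 72.6) at 225 min. These are single libraries, and no test was made. Ribosomal protein genes took 9.28% of reads at 225 min, 10.6% at 240 min, 7.47% at 330 min and 11.2% at 345 min, and their part in these turns was not tested.

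Compared per kilobase of coding sequence, the early order of mean levels was TAL1 (477 ± 60 RPM per kb), GND1 (283 ± 66), TKL1 (235 ± 33), SOL3 (218 ± 25), RKI1 (192 ± 27), ZWF1 (111 ± 15), SOL4 (38.5 ± 11.9), GND2 (20.2 ± 5.3) and NQM1 (16.7 ± 4.6, n = 7; SD, otherwise n = 8). Neighbours from GND1 to RKI1, and GND2 and NQM1, differed by less than the sum of their SDs. In the late window the order was TAL1 (578 ± 45 RPM per kb), GND2 (285 ± 86), SOL4 (248 ± 98), SOL3 (183 ± 23), TKL1 (167 ± 26), GND1 (130 ± 17), RKI1 (117 ± 57), ZWF1 (109 ± 25), NQM1 (85.3 ± 28.1) and TKL2 (62.4 ± 34.2). All neighbours in the late order but TAL1 and GND2 differed by less than the sum of their SDs. How reads were spread along a gene is not stated in the labels. The partners of a pair were nearly equal in length (1479 and 1470 bases for GND2 and GND1), so length hardly enters their comparison.

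At 0 min in high phosphate, 5 members with a value there lay outside their early range, without a test for a single library. TAL1 had at least 420 RPM in the early window, against 342 RPM (95% interval 306 to 380) at 0 min. RKI1 had at most 178 RPM in the early window, against 250 RPM (220 to 284) at 0 min. ZWF1, SOL3 and GND2 had lowest early values of 129, 139 and 19.8 RPM, against 109, 129 and 17.4 RPM at 0 min, where their intervals reached into the early range. GND1 (404 RPM) and TKL1 (524 RPM) lay within it, and SOL4, TKL2 and NQM1 had no value, which puts each below 15.4 RPM. SOL4 was thereby also outside its early range, whose lowest value was 18.5 RPM. NQM1, with early values down to 13.7 RPM, and TKL2, with no early value, could not be placed.

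The upstream regions are shown because the tested minor genes were called higher late minus early and no major gene was (TAL1, at 0.28, stayed under the size limit). In the 500 bases before each start codon of build R64, on both strands, 3 short motifs were searched: AGGGG, the stress response element bound by Msn2 and Msn4, CGGNNTTA, a core of the site of Stb5, a regulator of pathway genes, and CACGTG, the core of the Pho4 site. AGGGG occurred before 9 of the 10 members (all 4 minor genes and 3 of 4 major ones, GND1 being the exception), against 34.1% of 6000 such windows. ZWF1, which differed by -0.05 late minus early, had the most matches of any member, 5. SOL3, TKL1, TAL1 and RKI1 had 1 match each. The motif thus occurred before members called higher and before members that were not, and the sites of the latter are not printed. CGGNNTTA occurred before 7 members (4 of 4 major genes, 1 of 4 minor genes, and ZWF1 and RKI1), against 13.2%. CACGTG occurred before 0 of 10, against 6.23%. No match of 1 motif overlapped that of another. A match is a run of letters only, and nothing on binding was measured.

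All 7 matches before the minor genes to the stress response element are given first, read on the strand of the gene with the motif in capitals, where CCCCT is its reverse complement.
GND2, 160 bases before the start codon, chrVII:1004450-1004474, plus strand: gttatcttcaCCCCTattttcattt
GND2, 295 bases before, chrVII:1004315-1004339, plus strand: aattgaggcgCCCCTaatttttttg
SOL4, 122 bases before, chrVII:985836-985860, plus strand: aaaaaatcccCCCCTaagcagcgaa
TKL2, 73 bases before, chrII:476500-476524, minus strand: attggcttgtCCCCTcttactgtag
NQM1, 161 bases before, chrVII:581587-581611, minus strand: ggggcgaatgAGGGGagcatagtgg
NQM1, 172 bases before, chrVII:581598-581622, minus strand: cttccatagtAGGGGcgaatgaggg
NQM1, 496 bases before, cut at the edge of the window searched, chrVII:581922-581936, minus strand: AGGGGtagcggcttt
The NQM1 matches at 161 and 172 bases lie so close that the flank of each holds part of the other in lower case. All 6 matches before the major genes to the Stb5 core follow, with the 8 letters in capitals.
GND1, 276 bases before, chrVIII:470667-470694, plus strand: ttgtggctgtCGGTGTTAcattacggtg
GND1, 255 bases before, chrVIII:470688-470715, plus strand: tacggtgcctCGGTGTTAcgcggtgctt
SOL3, 148 bases before, chrVIII:423559-423586, plus strand: tttctttgcgCGGTGTTAtaatttgctc
TKL1, 412 bases before, chrXVI:695240-695267, minus strand: accctgaaaaCGGGCTTAaaagcccatc
TAL1, 361 bases before, chrXII:837708-837735, minus strand: tgtgacgcagCGGCATTAgcgcggcgtt
TAL1, 350 bases before, chrXII:837697-837724, minus strand: ggcattagcgCGGCGTTAtgagctaccc
Both GND1 matches and that of SOL3 read CGGTGTTA. GND2, the minor gene with a match to the Stb5 core, carried it on the opposite strand, 209 bases before its start codon.

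For 8 of the 10 members, genes with the most similar course were ranked by Pearson's r over the 24 libraries without phosphate, each library centred on its median, among up to 3275 genes with a value in all of them. ZWF1 was not ranked, nor was TKL2, which had only 13 values. GND2 was most like TDH1, a glyceraldehyde-3-phosphate dehydrogenase gene (r = 0.991), GSP2 (0.988) and the glycogen phosphorylase gene GPH1 (0.983). SOL4 was most like PGM2, phosphoglucomutase, GLC3, the glycogen branching enzyme, and TFS1 (0.979 each). NQM1 was most like YNL115C (0.970), PAI3 (0.965) and GPG1 (0.961), over 23 libraries. GND1 was most like HYP2, a translation factor gene (0.954), ADH6, an NADPH-dependent alcohol dehydrogenase gene (0.952), and SAM1 (0.951). TKL1 was most like ILV5 (0.959), RPS11A and TEF1 (0.955 each). SOL3 was most like GND1 and ADH6 (0.914 each) and MBF1 (0.895), and TAL1 like SBP1 (0.799), ACT1 (0.798) and SBA1 (0.793). RKI1, whose course was examined after its values were seen, was most like NOP56 (0.975), LHP1 (0.964) and CBF5 (0.958), of which NOP56 and CBF5 encode ribosome assembly proteins. The points share their libraries and the time order, so these values are descriptions only.

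Around the pathway, 46 genes in 6 lists were examined, of which 37 were tested. Late minus early 7 were higher (background 13.8%) and 0 lower in limma (background 3.41%), with a median of 0.41 against 0.45 over all genes. Without regard to size, 23 were higher and 2 lower (HXK2 and TRX1) at an unadjusted limma p under 0.05, where 65.7% of all genes were higher and 7.78% lower. At the entry from hexoses limma called 3 of 9 tested genes higher and 0 lower. PGM2 rose by 2.59 (8.38 ± 0.52 late, 5.79 ± 0.33 early), the glucokinase gene GLK1 by 1.45 and the hexokinase gene HXK1 by 1.44. HXK2, PGI1, PFK1 and PFK2 differed by -0.54, 0.72, 0.46 and 0.59, each under the size limit (limma adjusted p = 2.63e-05, 1.57e-06, 0.000231 and 6.90e-06). GLK1 and HXK1 were just short of the limit with libraries centred (0.99 and 0.98).

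For the late minus early counts that follow, the backgrounds were 13.8% of all genes called higher and 3.41% lower. At an unadjusted limma p under 0.05, 65.7% of all genes were higher. Of 9 genes that use ribose or erythrose phosphate, PGM3 alone was called higher, by 1.31 (limma adjusted p = 7.87e-08). The 5 PRS genes of phosphoribosyl pyrophosphate synthesis differed by -0.22 to 0.53. Of 5 tested genes of other NADPH sources 0 were called in either direction, and ALD6, cytosolic acetaldehyde dehydrogenase, was at -0.19. The isocitrate dehydrogenase gene IDP1 (0.65, limma adjusted p = 1.32e-06) and UTR1 (0.68, limma adjusted p = 5.75e-05) were higher but under the size limit. They were the 2 genes of this list with an unadjusted limma p under 0.05. Of 8 genes of the thioredoxin and glutaredoxin systems 2 were called higher: the glutaredoxin gene GRX1 by 1.80 (limma adjusted p = 1.23e-09) and TRR2, mitochondrial thioredoxin reductase, by 1.72 (limma adjusted p = 2.08e-09). Under the size limit, GRX2 (0.91), TSA1 (0.39) and GLR1 (0.25) were higher and TRX1 (-0.31) lower, each at a limma adjusted p under 0.05. Of 3 tested regulators GCR1, a regulator of glycolytic genes, alone was called higher, by 1.22. YAP1 (0.47) and GCR2 (0.62) were higher under the size limit, each at a limma adjusted p under 0.05. PGM3 and GCR1 lost their call with libraries centred (0.83 and 0.76). STB5, MSN2 and MSN4 had values in 8, 15 and 8 libraries and were not tested, and FBP1 and YEF1 had none. Among the closest relatives RPE1, SHB17 (listed as YKR043C) and RBK1 were tested, and limma called 0 of 3. RBK1, at 0.37, stayed under the size limit, with an unadjusted limma p under 0.05 and an adjusted p of 0.00416.

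**Figure D4:**
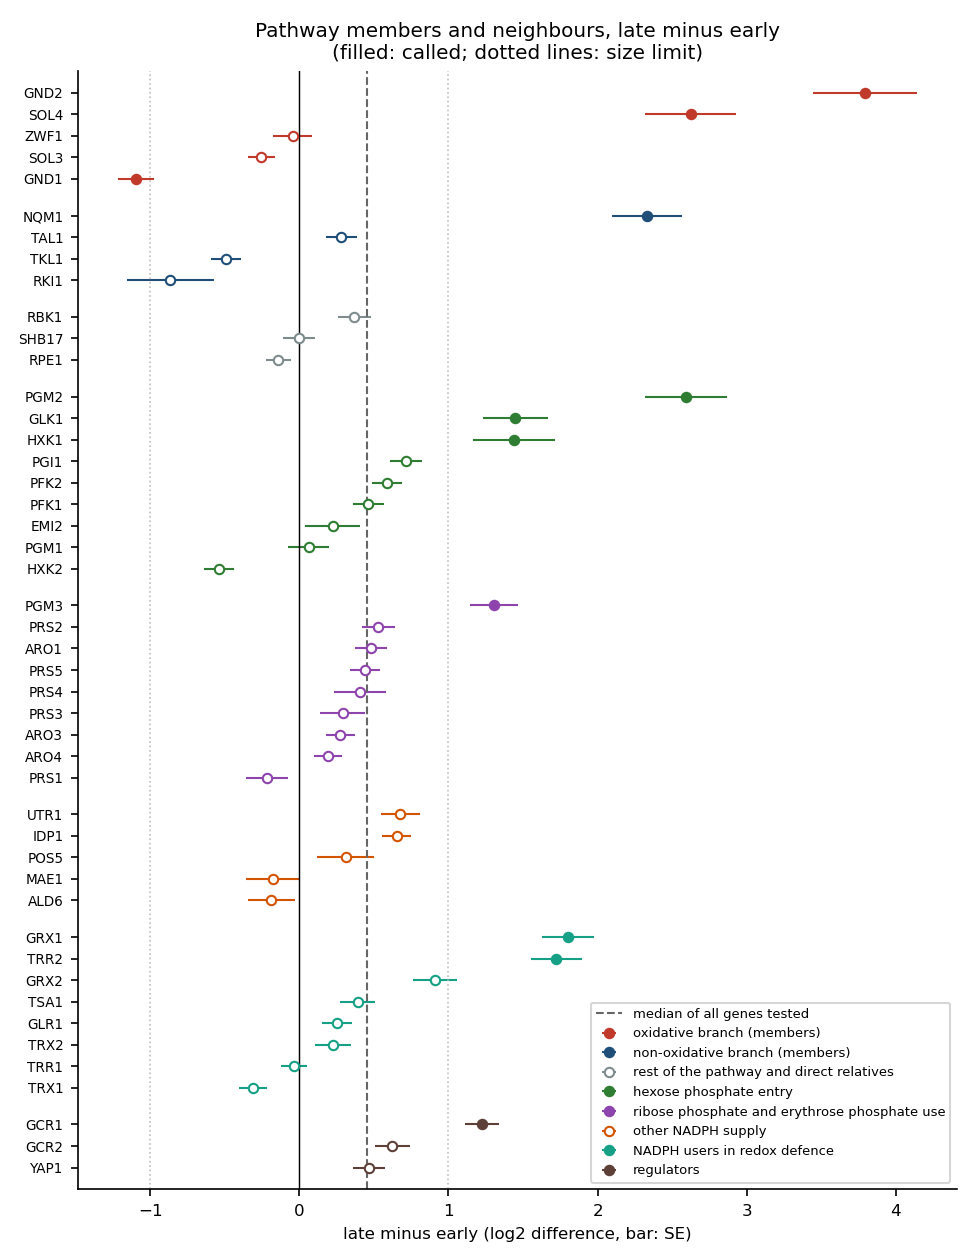
Log2 difference late minus early with its SE for 9 tested members and 37 tested neighbour genes, coloured by list; filled points were called, dotted lines mark the size limit and the dashed line the median of all genes (0.45). GND2 (3.79), SOL4 (2.62), PGM2 (2.59) and NQM1 (2.33) lie farthest right and GND1 (-1.09) farthest left.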

How the data were processed

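The 25 libraries hold total RNA of 1 time course, and each library had its own column, matched by description. The submitters' processing notes name Bowtie and build R64; how reads were counted, on which annotation and with which strand setting, is not stated there. The deposited table holds log2 values: 2 raised to them sums to 1000000 per library, and they were read as log2 RPM. The lowest value of each library was taken as 15 reads: with it, 93.6% to 94.4% of values came out as whole reads within 0.02. Because the rest are fractional, no count model was fitted.

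Windows were set against each other in limma 3.58.1 under R 4.3.3 (trend and robust estimation, Benjamini-Hochberg over the 4343 genes valued in 20 or more of the 24 libraries, no pseudocount, two-sided). The spline had 3 degrees of freedom. Pair ratios were tested by exact permutation of libraries between windows, adjusted over the comparisons that had values. These tests treat libraries of a window as independent replicates, and they come from 1 course in time order. The limma step was tested on simulated data with independent errors, which cannot speak to a dependence between libraries of 1 course. Intervals (95%) are exact Poisson or Clopper-Pearson and cover counting error only. Coordinates, coding lengths and sequences come from the RefSeq copy of R64; no annotated gene overlapped a member. Alternatives covered scaling, pseudocount (5 RPM), filters, floor values, windows of 6 libraries and left-out libraries. The named genes are the 10 members, RPE1, up to 3 called genes of each neighbour list by size, and the 3 genes most like each paired isozyme; others are given for context. The members and lists were chosen with earlier results of these data known.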

Additional observations from a re-analysis of the deposited data

Results flagged for a closer look

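Of 40 sets of 4 to 10 libraries examined (the members and the pair ratios by window), 4 held a library that stood far from the rest, and chance alone flags about 1 in 20. ZWF1 was low at 135 min, at 6.997 (log2 RPM), with the nearest middle library at 7.51. TAL1 was high at 45 min, at 9.27, with the nearest early library at 8.94. NQM1 was high at 30 min, at 4.74, with the nearest early library at 4.15, and so was the log2 ratio of NQM1 to TAL1 at 30 min, at -4.20, with the nearest at -4.80.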

How the results depend on the processing

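The members called late minus early numbered 4, and 4 to 5 without any 1 library (13.0% to 14.8% of all genes higher, 3.35% to 3.5% lower). Middle minus early they numbered 3, and 3 to 4 without any 1 library (4.12% to 5.65% higher, 2.26% to 3.2% lower), and for the time trend 5 throughout (30.5% to 34.7%). With genes valued in all 24 libraries, which leaves out NQM1, they numbered 3 late minus early (11.8% of genes higher, 4.52% lower), 2 middle minus early (4.46% and 3.73%) and 4 for the trend (28.1%). All pair ratios late minus early kept their direction and their adjusted p under 0.05 under each alternative run: without any 1 library GND2 over GND1 ranged from 4.79 to 4.998, SOL4 over SOL3 from 2.78 to 3.01 and NQM1 over TAL1 from 1.93 to 2.16. The late minus early ratio of TKL2 to TKL1 had a value only with missing values at the floor. The weakest count was that of members called late minus middle, 2 in all: 0 with libraries centred on their median (0.391% of genes higher), 1 with scaling to reads outside genes of ribosomal proteins (0.461%), 1 with a pseudocount of 5 RPM (0.576%), 1 with genes valued in all 24 libraries (0.672%), and 0 to 2 without any 1 library (0.46% to 0.99%). The filter for values in all 24 libraries leaves out NQM1, and the cause of the other changes in this count was not tested. Directions turned for uncalled values only: ZWF1 late minus early (0.042 without the 15, 345 and 360 min libraries, 0.023 with windows of 6 libraries, -0.10 to 0.033 without any 1 library), TAL1 late minus early (-0.18 with centring and with that scaling) and RKI1 late minus middle (-0.079 with centring, -0.015 with that scaling, -0.16 without the 3 libraries, -0.077 to 0.32 without any 1 library). No paired analysis was possible because the labels give no replicate numbers. Few reads limit GND2 (20 to 49), SOL4 (21 to 53) and NQM1 (15 to 34 where it had a value) in the early window. TKL2 had no value before 180 min and 19 to 140 reads late. Values under 15 reads are missing, and the floor was mostly higher in RPM in the late libraries.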
